A study of Mus musculus with 29 samples.

Results

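A set of 6 genes that are used as markers of a regenerative, fetal-like state of the intestinal epithelium was followed through 6 mouse models of colitis. The genes were Ly6a, Anxa1, Msln, Ctgf (Ccn2), Cyr61 (Ccn1) and Ankrd1, 6 of the 54532 genes in the count table, and the rule for them uses their names and no measured value. Each name matched 1 gene, and all 6 passed the filter of a mean count of at least 3 over the 29 mice.

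After injury, surviving cells of the intestinal epithelium can leave the adult programme and take up one that resembles the fetal gut. Ly6a encodes the surface protein Sca-1, and together with Anxa1 it is widely used to recognise these repairing cells. The transcriptional co-activators YAP and TAZ (Yap1 and Wwtr1), which are held back by the kinases of the Hippo pathway, act through the TEAD DNA-binding factors in this response, and Ccn1, Ccn2 and Ankrd1 are classical targets by which their activity is read. Several of these genes are also made outside the epithelium. Ly6a is made by endothelium, T cells and other leukocytes and is raised by interferons, Anxa1 is abundant in neutrophils and Msln in the mesothelium that covers the gut, while Ccn1 and Ccn2 are made by fibroblasts and muscle.

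Whole colon RNA was measured by poly(A) RNA-seq with 1 library per mouse. The mice labelled Balb/C were untreated (n = 3) or received 3% DSS in drinking water for 5 days with culling at day 10 (n = 3), rectal DNBS at 3 mg (n = 3), or an antibody named as an IL10 blocking antibody, dosed at 750 µg and called anti-IL-10R in the protocol (n = 4). Mice given this antibody were culled at up to 4 weeks. The mice labelled C57BL/6 Rag1-/- were untreated (n = 3), received sorted naive CD4+ T cells with culling at 6 to 8 weeks (T cell transfer, TCT, n = 3), or were injected with 50 µg of agonistic anti-CD40 and culled after 7 days (n = 3). The mice labelled Balb/C Rag2-/- were untreated (n = 3), and those labelled Balb/C Tbx21-/- x Rag2-/- were TRUC mice, which develop colitis without treatment (n = 4). The labels state no ages, but TRUC mouse 4 has the identifier TRUC_8W, whose meaning is not given. Of these groups the study's methods give an age for the T cell recipients only, which were young adults. Rag1-/- and Rag2-/- mice, controls included, lack mature T and B cells of their own. The sources differ on 3 groups. The T cell recipients are Rag1-/- by genotype label and in the methods but Rag2-/- in the treatment text of the labels. Their culling is at 4 to 6 weeks in the methods. The methods describe mice deficient for Il10 where the labels name the antibody. For DSS the methods name C57BL/6 mice and culling at day 7 or 8. Each model was compared with the untreated mice of its own label. DSS, DNBS and the IL10 antibody shared the same Balb/C controls, TCT and anti-CD40 the same Rag1-/- controls, and TRUC had the Rag2-/- controls. The labels state no separate litters or cages, so the p-values measure the spread between these mice.

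Total counts ran from 10725564 to 14977094 per mouse, with a median of 12287039, and 3 counts, the upper limit that a count of 0 allows, corresponded to between 0.179 and 0.314 CPM. CPM is the count of a gene scaled to a common library total after TMM normalisation, and this limit covers counting error only. The summed level of 8 epithelial markers was 7212 to 20707 CPM over the 29 mice, so epithelium was present in every library. It was 7212 to 8829.8 in DSS and 14583 to 20707 with the IL10 antibody against 9070.1 to 10872 in the Balb/C controls, with 1 of 8 higher and 3 lower in DSS and 7 of 8 higher with the IL10 antibody. In TRUC 5 of 8 were higher, with anti-CD40 3, in DNBS 1 and in TCT 1. The part of this in the results was not tested. Some labels went against the data. H2-Ea-ps, the annotated form of the class II gene H2-Ea that mice of the H2b haplotype such as C57BL/6 do not transcribe, had 0 or 1 count in the libraries labelled Balb/C that were untreated or given DSS, DNBS or the IL10 antibody, and 0 counts in TCT, but 784 to 3956 counts in the libraries labelled Rag1-/- control, anti-CD40, Rag2-/- control and TRUC. Rag2 had 0 or 1 read in the Balb/C libraries and TCT, 6 to 25 reads in both groups of Rag-deficient controls, 48 to 99 with anti-CD40 and 57 to 94 in TRUC, while Rag1 had 20 to 33 reads in TCT and at most 4 elsewhere. TRUC had 26 to 52 reads of Tbx21. Reads over whole genes do not check a deletion of part of a gene, and groups are named here by their labels. TCT and its labelled control differed in these markers, so TCT is also given against the untreated Balb/C libraries and anti-CD40 also against the Rag2-/- controls. Several libraries stood apart in markers of other cells. DSS mouse 8 had 1818 CPM summed over 6 neutrophil markers against 190.4 and 346 in the other DSS mice, DNBS mouse 11 had 475 CPM over 6 squamous markers against 29.8 and 22.7 in the other DNBS mice, and DNBS mouse 14 had 45.8 CPM over 7 mesothelial markers against 6.69 and 3.58. All 3 DNBS mice were above the 4.18 to 5.93 CPM of squamous markers in the Balb/C controls, with 4 of 6 markers called higher, and so were the DSS mice at 10.4 to 28.5, with 2 of 6. TRUC mice had 31.3 to 61.03 CPM against 4.25 to 8.61 in their controls, also with 2 of 6 higher. The part of squamous epithelium in the results was not tested. In bulk colon, fewer cells of a type and less RNA per cell cannot be told apart.

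RefSeq promoters were at hand for 3 of the 6 genes, Anxa1 (a phospholipid-binding protein that limits inflammation), Ankrd1 (an ankyrin-repeat protein induced by stretch) and Ccn1 (a secreted matricellular protein). The 250 bases before the RefSeq start are shown because each holds the 6-letter core GGAATG that TEAD factors recognise, and the capitals mark this core or, read on the other strand, CATTCC. All 3 genes lie on the minus strand of GRCm38.p6, and the sequences read 5′ to 3′ towards the gene from chr19:20390672-20390921, chr19:36119845-36120094 and chr3:145649986-145650235.
Anxa1: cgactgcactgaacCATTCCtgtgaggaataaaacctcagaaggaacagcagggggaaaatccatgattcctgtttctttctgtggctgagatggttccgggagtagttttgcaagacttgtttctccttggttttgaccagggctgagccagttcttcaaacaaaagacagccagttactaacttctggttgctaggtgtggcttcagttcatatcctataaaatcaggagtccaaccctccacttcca
Ankrd1: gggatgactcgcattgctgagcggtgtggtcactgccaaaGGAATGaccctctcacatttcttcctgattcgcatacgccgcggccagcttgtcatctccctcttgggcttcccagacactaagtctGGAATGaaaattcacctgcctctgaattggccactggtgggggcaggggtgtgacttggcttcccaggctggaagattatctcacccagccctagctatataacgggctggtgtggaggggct
Ccn1: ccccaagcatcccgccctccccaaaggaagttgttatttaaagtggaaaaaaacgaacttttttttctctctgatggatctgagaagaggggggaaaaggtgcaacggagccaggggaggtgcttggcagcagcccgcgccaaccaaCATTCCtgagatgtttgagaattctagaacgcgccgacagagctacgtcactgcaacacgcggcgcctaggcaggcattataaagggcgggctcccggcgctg
The core stood 236 bases before the start of Anxa1 and 103 before that of Ccn1, on the opposite strand in both, and 210 and 123 bases before the start of Ankrd1 in the printed direction. In GENCODE M21 the Anxa1 and Ankrd1 windows fall inside the annotated gene span, whose first transcripts begin further upstream, and the Ccn1 window lies outside it. Among all 32851 RefSeq promoters, 12.6% held GGAATG on either strand in the same 250 bases. A loose CArG-like pattern, the element of serum response factor, was also in all 3 windows and in 67.1% of promoters. The STAT pattern TTCNNNGAA (7.02% of promoters) and the AP-1 pattern TGANTCA (6.75%) were in none of the 3. These matches describe letters and do not show binding.

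Between 1 and 4 of the 6 markers were higher in inflamed colon, depending on the model. By the quasi-likelihood test of edgeR, with p-values adjusted by the Benjamini-Hochberg method across 18616 genes, 4 of 6 were higher in TRUC, where 22.4% of all genes were higher and 23.4% lower. The count was also 4 of 6 in DSS (17.7% of all genes higher, 16.3% lower), and it was 3 of 6 with the IL10 antibody (27.2% higher, 26.1% lower), 2 of 6 in DNBS (3.95% higher, 2.21% lower), 2 of 6 in TCT (16.1% higher, 14% lower) and 1 of 6 with anti-CD40 (10.9% higher, 10.7% lower). Ccn2 was lower in TCT and with anti-CD40, and it was the 1 gene of the 6 called lower in any model. The single calls with anti-CD40, and the lower call in TCT, are shares near the background. The median log2 fold change of the 6 genes was 1.47 in TRUC, 1.53 in DSS, 1.30 in DNBS, 0.76 with the IL10 antibody, 0.37 in TCT and 0.08 with anti-CD40, against medians of all genes between -0.03 and 0.02. Ly6a was called in all 6 models, Anxa1 in 4, Ankrd1 in 3, Msln in 2 and Ccn1 in 1. The DNBS count was 4 without DNBS mouse 11 and 1 without DNBS mouse 16 or any 1 of the Balb/C controls, and the lower count with anti-CD40 was 0 without anti-CD40 mouse 7.

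**Figure D1:**
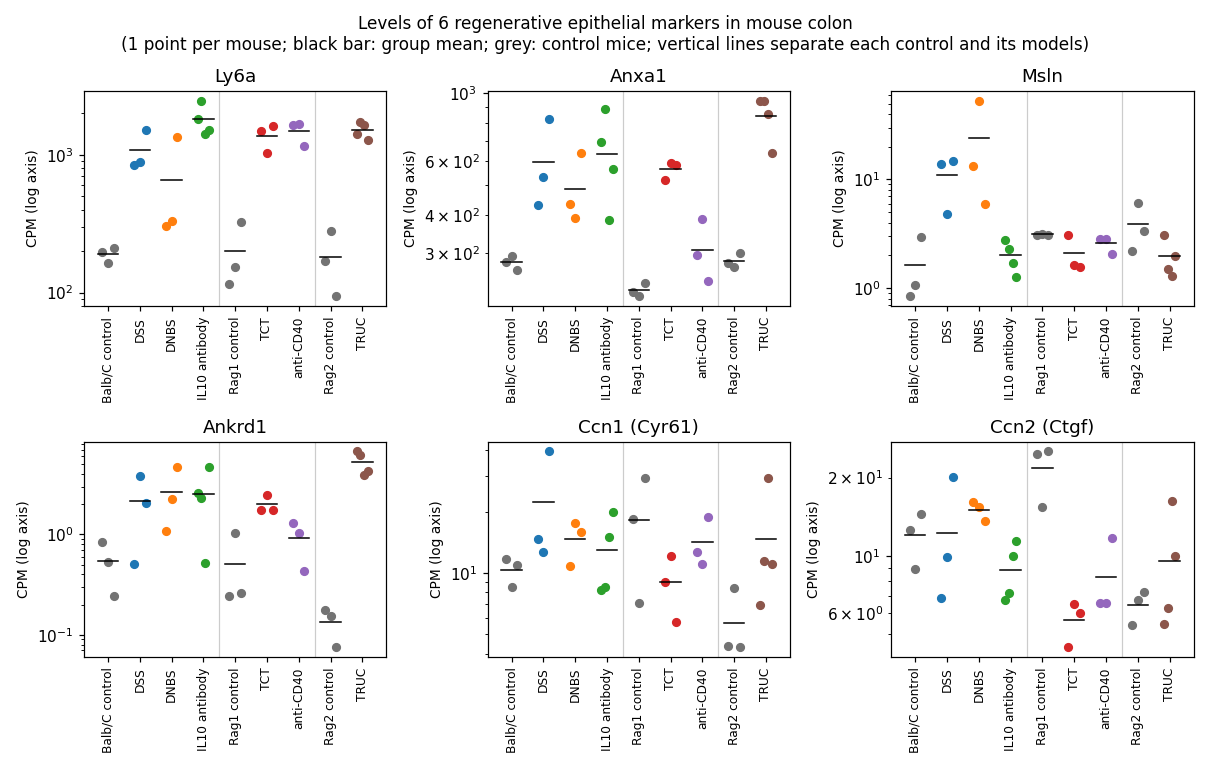
CPM of each of the 6 genes (vertical axis, logarithmic) in each of 29 mice by group; points are mice and bars are group means. Ly6a lay between 93.9 and 328 CPM in all 9 control mice and between 304 and 2464 in the mice with colitis, while Ccn2 was highest in the Rag1-/- controls.

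Per kilobase of exon, the scale on which genes can be compared with each other, the 6 genes spanned a wide range in the untreated Balb/C colon. The mean level was 158 CPM per kb for Ly6a and 95.9 for Anxa1, 5.12 for Ccn1 and 4.19 for Ccn2, 0.528 for Msln and 0.187 for Ankrd1. The last was close to the counting limit in controls, so its fold changes carry wide errors.

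Ly6a (ENSMUSG00000075602, chr15:74994877-74998031, minus strand) was higher in every model. The 3 untreated Balb/C mice had 197, 164 and 209 CPM, and the DSS mice had 839, 886 and 1510.2. The mice given the IL10 antibody had 1827, 2464, 1413 and 1524 CPM. Groups and controls did not overlap in either comparison, with log2 fold changes of 2.50 ± 0.47 (SE, adjusted p = 0.000311) in DSS and 3.25 ± 0.47 (SE, adjusted p = 8.73e-06) with the IL10 antibody. DNBS was uneven, with 304, 330.0 and 1339 CPM in mice 11, 14 and 16, all above the controls, with mouse 16 the highest. The DNBS log2 fold change was 1.79 ± 0.46 (SE, adjusted p = 0.0233), and it was 0.74 (adjusted p = 0.348) without mouse 16. The call was also lost when any of the 3 Balb/C controls was left out, at 1.83 (adjusted p = 0.0898) without mouse 1, 1.69 (adjusted p = 0.102) without mouse 2 and 1.87 (adjusted p = 0.0603) without mouse 4. The Rag1-/- controls had 115, 154 and 328 CPM. The TCT mice had 1494, 1026 and 1614 CPM and the anti-CD40 mice 1634, 1680.4 and 1159. Both groups lay wholly above the controls, with log2 fold changes of 2.79 ± 0.48 (SE, adjusted p = 8.69e-05) in TCT and 2.91 ± 0.48 (SE, adjusted p = 0.000229) with anti-CD40. Against the other controls they were 2.86 (adjusted p = 0.000142) for TCT over Balb/C and 3.04 (adjusted p = 0.000146) for anti-CD40 over Rag2-/-. The Rag2-/- controls had 170.3, 278 and 93.9 CPM and the TRUC mice 1408, 1730.5, 1649 and 1281, a log2 fold change of 3.07 ± 0.47 (SE, adjusted p = 2.36e-05) without overlap. By mean level the order was IL10 antibody, TRUC, anti-CD40, TCT, DSS, DNBS and then the Rag1-/-, Balb/C and Rag2-/- controls, and the ranges of neighbours overlapped in all 8 steps.

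Reads of Ly6a can be shared with its relatives in the Ly6 family: 19.0% of the 50-base windows of its exons also occur in another gene, mostly in Ly6c1. Markers of cells other than epithelium that make Ly6a also moved in some models. The 6 endothelial markers summed to 277 to 397 CPM in DSS and 224 to 431 in DNBS against 176 to 186 in the Balb/C controls, with 6 of 6 higher in DSS and 3 of 6 in DNBS. With the IL10 antibody they summed to 102 to 197 CPM, with 2 of 6 higher and 1 lower. In TCT they summed to 192 to 223 CPM against 148 to 194 in the Rag1-/- controls, with 1 of 6 higher. In TRUC they summed to 111 to 152 against 132 to 158 in its controls, and with anti-CD40 to 111 to 159 against 148 to 194. In both, edgeR and DESeq2 called 0 of 6, and 1 of 6 was lower at an unadjusted p under 0.05. The 5 T-cell markers summed to 87.01 to 158 CPM in TCT against 3.49 to 4.86 in the Rag1-/- controls, where Cd3d was at 0, with 5 of 5 higher. They summed to 67.03 to 115 CPM with the IL10 antibody and 31.5 to 50.6 in DSS against 9.59 to 16.5 in the Balb/C controls, with 5 of 5 and 4 of 5 higher. In TRUC the sum was 6.96 to 8.81 against 2.21 to 5.97, with 3 of 5 higher. It was 4.42 to 20.04 in DNBS and 4.16 to 6.09 with anti-CD40, where edgeR called 0 of 5. At an unadjusted p under 0.05 the number was 0 in DNBS and 2 with anti-CD40, and DESeq2 called 0 and 1. By their labels TRUC and anti-CD40 mice lack mature T cells of their own, so there these markers cannot be read as T cells. Which cells held those reads was not tested. The part of endothelium, and of T cells in the other models, in the Ly6a values was not tested.

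Anxa1 (ENSMUSG00000024659, chr19:20373428-20390944, minus strand) was higher in 4 of 6 models than in the controls. It had 281, 294 and 263 CPM in the Balb/C controls and 430.4, 534 and 824 in DSS. The IL10 antibody mice had 692, 890.4, 383 and 564 CPM, and the DNBS mice 433, 389.8 and 638. All 3 of these groups lay above the controls, with log2 fold changes of 1.09 ± 0.25 (SE, adjusted p = 0.00154) in DSS, 1.18 ± 0.24 (SE, adjusted p = 0.000255) with the IL10 antibody and 0.80 ± 0.25 (SE, adjusted p = 0.0516) in DNBS. The DNBS value missed the threshold, and it passed without DNBS mouse 11 at 0.88 (adjusted p = 0.0387) and in DESeq2 at 0.80 (adjusted p = 0.0264). In the Rag1-/- controls Anxa1 was at 223, 216 and 239 CPM. The TCT mice, with 518, 589.6 and 582 CPM, and the anti-CD40 mice, with 294, 386 and 242, both lay above them. The log2 fold change was 1.32 ± 0.25 (SE, adjusted p = 0.000263) in TCT and 0.44 ± 0.25 (SE, adjusted p = 0.2003) with anti-CD40, the latter with a 95% interval of -0.07 to 0.96. Against the other controls TCT gave 1.01 (adjusted p = 0.00364), and anti-CD40 0.12 (adjusted p = 0.756) with overlapping mice. The Rag2-/- controls had 278, 269.5 and 299 CPM and the TRUC mice 943, 946, 855 and 637, giving 1.58 ± 0.24 (SE, adjusted p = 2.14e-05). TRUC stood at the head of the order, followed by the IL10 antibody, DSS, TCT, DNBS, anti-CD40 and the Rag2-/-, Balb/C and Rag1-/- controls, and neighbours overlapped in 6 of 8 steps. The gaps without overlap were between DNBS and anti-CD40 and between the Balb/C and the Rag1-/- controls.

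Neutrophil markers moved with Anxa1 in part. The 6 markers (S100a8, S100a9, Csf3r, Cxcr2, Retnlg and Mmp8) summed to 757 to 1258 CPM in TRUC, 190.4 to 1818 in DSS, 133 to 342 with the IL10 antibody, 112 to 264 in TCT, 32.9 to 191 with anti-CD40 and 22.2 to 108 in DNBS. In the 9 control mice they summed to 0.973 to 2.11 CPM, with Cxcr2 at 0 in all 3 control groups. All 6 were called higher in every model but anti-CD40, where 4 were, and Anxa1 itself did not pass with anti-CD40 or in DNBS. Within DNBS, mouse 14 had the highest neutrophil sum, 108 CPM, and the lowest Anxa1. Mouse 16 had the highest Anxa1 at a neutrophil sum of 59.9. In DSS and with the IL10 antibody the mice had the same order in both. In TRUC mouse 3 was the highest and mouse 5 the lowest in both, and anti-CD40 mouse 7 was the highest in both. TCT mouse 5 had the highest neutrophil sum and TCT mouse 3 the highest Anxa1. The part of neutrophils in the Anxa1 values was not tested. DSS mouse 8, with the highest neutrophil sum, was also the highest DSS mouse in Ly6a, Anxa1, Msln, Ccn1 and Ccn2. Without it Anxa1 remained higher in DSS at 0.79 (adjusted p = 0.0248). Its receptors on leukocytes, Fpr1 and Fpr2, were both higher in TRUC, DSS, TCT, anti-CD40 and with the IL10 antibody, and in DNBS their log2 fold changes of 4.01 and 3.48 did not pass. In DNBS both had an unadjusted p under 0.05 and both passed in DESeq2 or without DNBS mouse 11, and with anti-CD40 1 of them remained without any 1 of the Rag1-/- controls or without anti-CD40 mouse 7. Another receptor gene of the list was too low to test. Of 10 other annexin genes tested, 6 were higher and 1 lower in TRUC, 4 and 2 in DSS, 1 and 0 in DNBS, 4 and 2 with the IL10 antibody, 5 and 1 in TCT and 3 and 0 with anti-CD40. The 4 in DSS became 1 without DSS mouse 8 and 2 without Balb/C mouse 2 or 4. They were at most 3 without any other mouse of that comparison. The 5 in TCT became 3 without Rag1-/- mouse 2 or 4. The 3 with anti-CD40 became 1 without Rag1-/- mouse 3 or anti-CD40 mouse 7. Their median ran from 0.17 with the IL10 antibody to 0.66 in TRUC. In this family Anxa2 had log2 fold changes of 1.31 in TRUC and 1.29 with the IL10 antibody, whereas Anxa13, an annexin of differentiated gut epithelium, was lower in DSS (-2.80), TRUC (-2.11) and TCT (-1.81).

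Msln (mesothelin, ENSMUSG00000063011, chr17:25748613-25754378, minus strand) was called higher in the 2 models set off by a chemical, DSS and DNBS. The Balb/C controls had 0.838, 1.07 and 2.95 CPM, the DSS mice 13.8, 4.79 and 14.7 and the DNBS mice 11, 14 and 16 13.4, 53.04 and 5.97. Every mouse of both models was above every control. The log2 fold change was 2.79 ± 0.62 (SE, adjusted p = 0.00141) in DSS and 3.91 ± 0.64 (SE, adjusted p = 0.00134) in DNBS. Without DNBS mouse 14 the DNBS value was 2.61 (adjusted p = 0.0116), and in a fit of the 2 groups alone it was 3.92 (adjusted p = 0.053). Without Balb/C mouse 4, the control with the most Msln, the values were 3.52 (adjusted p = 0.00158) in DSS and 4.64 (adjusted p = 0.00486) in DNBS. The IL10 antibody mice had 2.78, 2.29, 1.72 and 1.25 CPM, all within the control range, at 0.34 ± 0.62 (SE, adjusted p = 0.669) with a 95% interval of -0.96 to 1.64. In the Rag1-/- controls Msln was at 3.08, 3.17 and 3.098 CPM, the TCT mice 3.06, 1.62 and 1.58 and the anti-CD40 mice 2.82, 2.83 and 2.08. Every mouse of both models lay below every Rag1-/- control. Neither model passed, with -0.58 ± 0.63 (SE, adjusted p = 0.528) in TCT and -0.28 ± 0.62 (SE, adjusted p = 0.7899) with anti-CD40. The Rag2-/- controls had 2.21, 6.05 and 3.32 CPM and TRUC 3.097, 1.51, 1.28 and 1.95, overlapping at -0.96 ± 0.57 (SE, adjusted p = 0.173). DNBS and DSS headed the order, followed by the Rag2-/- and Rag1-/- controls, anti-CD40, TCT, the IL10 antibody, TRUC and the Balb/C controls, and 7 of 8 neighbouring pairs overlapped.

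Mesothelial markers moved with Msln in part. The 7 markers (Upk3b, Upk1b, Wt1, Lrrn4, Muc16, Bnc1 and Gpm6a) summed to 4.396 to 10.3 CPM in the Balb/C controls and 19.4 to 40.5 in DSS, where 7 of 7 were called higher. In DNBS 1 of 7 was called higher, and the sums were 6.69 in mouse 11, 45.8 in mouse 14 and 3.58 in mouse 16, while Msln was 13.4, 53.04 and 5.97 CPM in the same mice. DNBS mice 11 and 16 had a mesothelial sum within or below the control range and Msln above every control. In TRUC the sum was 1.69 to 3.91 against 5.14 to 22.2 in the Rag2-/- controls, with 5 of 7 lower and Bnc1 at 0. It was 4.38 to 9.04 with the IL10 antibody, 3.67 to 4.73 in TCT, where Bnc1 was also at 0, 3.601 to 5.07 with anti-CD40 and 4.78 to 9.28 in the Rag1-/- controls, with 1 of 7 higher and 1 lower in TCT and 1 lower with anti-CD40. The part of mesothelium in the Msln values was not tested. Of the windows of Msln, 2.89% occur in another gene, mostly Syt12.

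**Figure D2:**
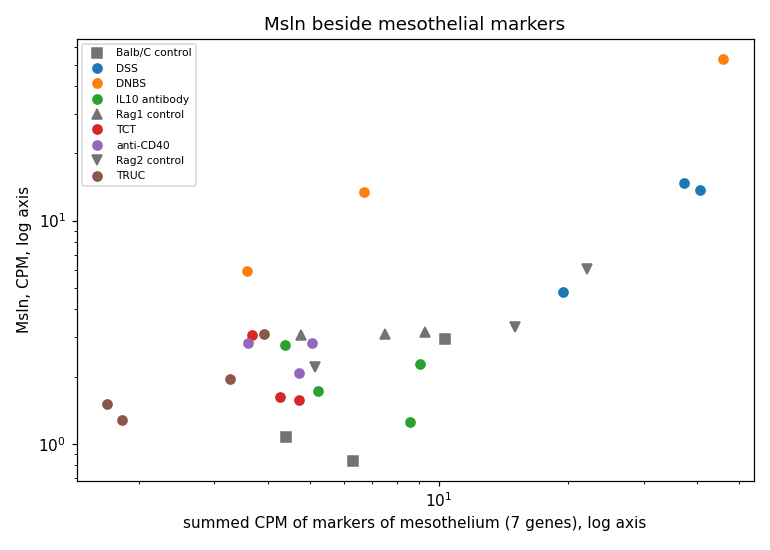
Msln against the summed level of 7 mesothelial markers, both in CPM on logarithmic axes, with 1 point per mouse and grey symbols for controls. DNBS mouse 14 (53.0 CPM of Msln) and the DSS mice have high mesothelial sums, and DNBS mice 11 and 16 do not.

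Ankrd1 (ENSMUSG00000024803, chr19:36111961-36120099, minus strand) had the largest single log2 fold change of the 3 YAP/TAZ targets, in TRUC. In TCT Ccn2 (-1.94) changed about as much in the other direction, and with anti-CD40 Ccn2 changed more (-1.38). The Rag2-/- controls had 2, 2 and 1 reads, or 0.177, 0.153 and 0.0755 CPM, and the 4 TRUC mice had 6.71, 6.23, 3.94 and 4.32 CPM. The ratio of counts per effective library was 40.3 with a counting interval of 17.0 to 125, and the fitted log2 fold change was 5.21 ± 0.85 (SE, adjusted p = 4.51e-05). The Balb/C controls had 0.838, 0.533 and 0.246 CPM. DSS mice had 0.503, 3.83 and 2.08 CPM, DNBS mice 1.07, 2.25 and 4.69 and IL10 antibody mice 2.61, 2.29, 0.515 and 4.71. DSS mouse 5 and IL10 antibody mouse 3 lay within the control range, and the DNBS mice above it. The log2 fold changes were 1.95 ± 0.72 (SE, adjusted p = 0.0378) in DSS, 2.18 ± 0.69 (SE, adjusted p = 0.0106) with the IL10 antibody and 2.25 ± 0.71 (SE, adjusted p = 0.0581) in DNBS. The DSS call was lost without DSS mouse 6, at 1.19 (adjusted p = 0.247), without DSS mouse 8, at 1.96 (adjusted p = 0.0761), without Balb/C mouse 2 or 4 and in a fit of the 2 groups alone, at 1.94 (adjusted p = 0.102), and that of the IL10 antibody without Balb/C mouse 4, at 1.86 (adjusted p = 0.0509). The DNBS value passed without DNBS mouse 11, at 2.65 (adjusted p = 0.0208), and in DESeq2, at 2.28 (adjusted p = 0.0247). The Rag1-/- controls had 0.243, 1.03 and 0.258 CPM, the TCT mice 1.75, 2.48 and 1.76 and the anti-CD40 mice 1.32, 1.03 and 0.431. Every TCT mouse was above the controls, but the value of 1.91 ± 0.74 (SE, adjusted p = 0.0523) missed the threshold. It passed without Rag1-/- mouse 3, at 2.95 (adjusted p = 0.0237), in a fit of the 2 groups alone, at 1.90 (adjusted p = 0.0174), and in DESeq2, at 1.94 (adjusted p = 0.0314). Anti-CD40 gave 0.78 ± 0.79 (SE, adjusted p = 0.517), and 2.67 (adjusted p = 0.0511) against the Rag2-/- controls. TRUC led the order, followed by DNBS, the IL10 antibody, DSS, TCT, anti-CD40 and the Balb/C, Rag1-/- and Rag2-/- controls, with overlap in 6 of 8 neighbouring pairs and gaps between TCT and anti-CD40 and between the Rag1-/- and Rag2-/- controls. Ankrd1 is abundant in striated muscle. The 6 muscle markers of that kind summed to 16.3 to 22.2 CPM in TRUC against 20.6 to 28.01 in its controls. In TRUC 1 was higher and 1 lower. The sums were 18.5 to 80.02 CPM in DNBS and 30.9 to 56.1 in DSS, against 24.5 to 34.6 in the Balb/C controls. In both edgeR called 0 of 6. At an unadjusted p under 0.05, 2 were higher in DNBS, and 1 was higher and 1 lower in DSS. DESeq2 called 1 higher in DNBS and 1 lower in DSS. With the IL10 antibody edgeR called 2 lower, with anti-CD40 1 higher and in TCT 0. The part of muscle in the Ankrd1 values was not tested.

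Ccn1 (Cyr61, ENSMUSG00000028195, chr3:145646976-145649981, minus strand) was called higher in TRUC alone, and that call rested on few mice. The Rag2-/- controls had 4.34, 8.42 and 4.305 CPM and TRUC mice 2, 3, 4 and 5 6.93, 11.4, 29.1 and 10.99, so the groups overlapped and mouse 4 was the highest. The log2 fold change was 1.35 ± 0.51 (SE, adjusted p = 0.033), and it was 0.77 (adjusted p = 0.206) without TRUC mouse 4, 1.19 (adjusted p = 0.116) without Rag2-/- mouse 1 and 1.18 (adjusted p = 0.117) without Rag2-/- mouse 4. The Balb/C controls had 11.7, 8.46 and 10.9 CPM. DSS mice had 14.6, 12.6 and 39.5 CPM, DNBS mice 10.8, 17.6 and 15.8 and IL10 antibody mice 8.18, 8.52, 15.02 and 19.97. In DSS all mice were above the controls, with mouse 8 far above the others, but the log2 fold change of 1.10 ± 0.51 (SE, adjusted p = 0.0999) did not pass. It was 0.51 (adjusted p = 0.568) in DNBS and 0.32 (adjusted p = 0.5996) with the IL10 antibody. The Rag1-/- controls were spread over 18.4, 7.07 and 29.1 CPM, the TCT mice over 8.995, 12.1 and 5.75 and the anti-CD40 mice over 12.6, 10.98 and 18.8. With that spread, neither TCT at -1.01 (adjusted p = 0.147) nor anti-CD40 at -0.36 (adjusted p = 0.659) passed, and the sign for anti-CD40 turned to 1.31 (adjusted p = 0.0745) against the Rag2-/- controls. The groups ran from DSS through the Rag1-/- controls, DNBS, TRUC, anti-CD40, the IL10 antibody, the Balb/C controls and TCT to the Rag2-/- controls, and all 8 neighbouring pairs overlapped.

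Ccn2 (Ctgf, ENSMUSG00000019997, chr10:24595442-24598683, plus strand), which like Ccn1 encodes a matricellular protein and is linked to fibrosis, was called higher in no model. The Balb/C controls had 12.6, 8.92 and 14.4 CPM and the DSS mice 6.86, 9.91 and 20.1. DNBS mice had 16.1, 15.4 and 13.6 CPM and IL10 antibody mice 6.74, 7.17, 9.95 and 11.4. All 3 groups overlapped the controls, and the log2 fold changes were 0.03 ± 0.36 (SE, adjusted p = 0.959) in DSS, 0.33 ± 0.36 (SE, adjusted p = 0.6002) in DNBS and -0.44 ± 0.34 (SE, adjusted p = 0.285) with the IL10 antibody, with 95% intervals of -0.72 to 0.79, -0.42 to 1.08 and -1.15 to 0.27. The Rag2-/- controls had 5.401, 6.73 and 7.25 CPM and TRUC 5.46, 6.32, 16.3 and 10.02, at 0.55 ± 0.35 (SE, adjusted p = 0.207). The Rag1-/- controls had the highest levels of all groups, 24.6, 15.4 and 25.2 CPM. TCT mice had 4.45, 6.497 and 6.02 CPM and anti-CD40 mice 6.58, 6.602 and 11.7. Both were wholly below these controls, at -1.94 ± 0.38 (SE, adjusted p = 0.000379) in TCT and -1.38 ± 0.37 (SE, adjusted p = 0.00982) with anti-CD40. The choice of control mattered here. Against the Balb/C controls TCT was lower by a smaller amount, at -1.08 (adjusted p = 0.0325), and against the Rag2-/- controls anti-CD40 was at 0.36 (adjusted p = 0.512). Without anti-CD40 mouse 7 its value was -1.24 (adjusted p = 0.0653). The difference of the Rag1-/- from the Rag2-/- controls was 1.74 ± 0.37 (SE, adjusted p = 0.0552) and did not pass. The order ran from the Rag1-/- controls through DNBS, DSS, the Balb/C controls, TRUC, the IL10 antibody, anti-CD40 and the Rag2-/- controls to TCT, and all 8 neighbouring pairs overlapped. An antisense gene, Gm15270, overlaps the exons of Ccn2 and shares 17.2% of its windows, and it had 41 reads over all 29 mice.

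Fibroblasts and smooth muscle, which make Ccn1 and Ccn2, were also read through their markers. The 5 fibroblast markers summed to 1328 to 1604 CPM in TCT and 687 to 1195 with anti-CD40 against 980.4 to 1393 in the Rag1-/- controls, with 1 of 5 higher in TCT and 2 of 5 lower with anti-CD40. With the IL10 antibody 3 of 5 were lower, in DSS and in DNBS 2 of 5 were higher, and in TRUC 1 of 5 was lower. The 6 smooth muscle markers summed to 3769 to 4941 CPM in TCT and 2781 to 6882 with anti-CD40 against 4153 to 4968. In both comparisons 0 of 6 were called by edgeR or by DESeq2, and 0 had an unadjusted p under 0.05. With the IL10 antibody 5 of 6 smooth muscle markers were lower, at 2628 to 4955 CPM against 6489 to 8061 in the Balb/C controls, and in TRUC 2 of 6. The part of these cells in the Ccn1 and Ccn2 values was not tested.

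**Figure D3:**
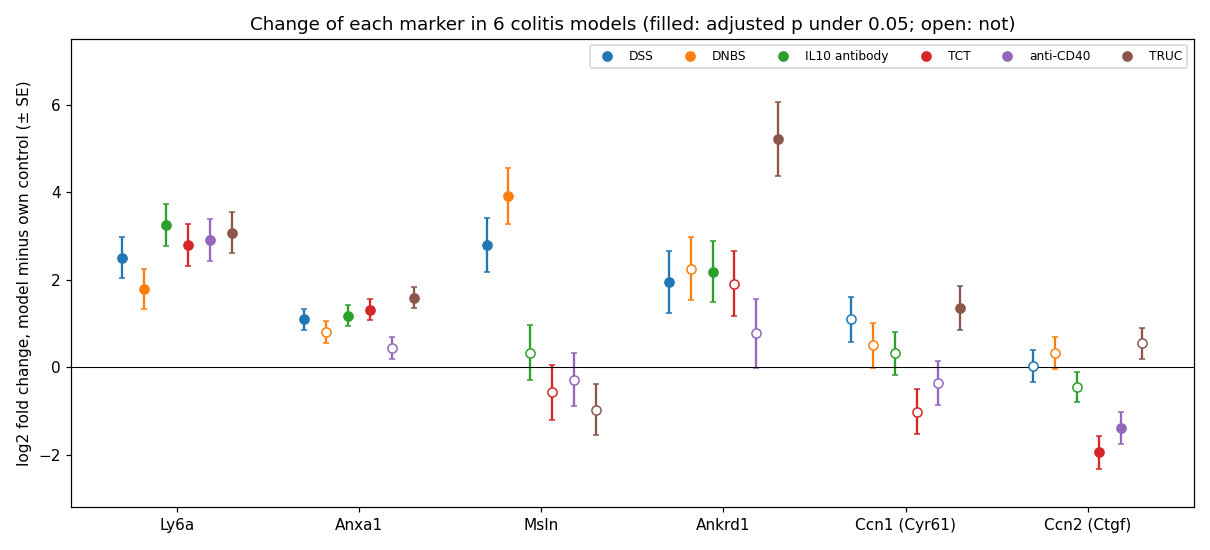
Log2 fold change of each gene in each model against its own labelled control (points), with standard errors from edgeR (bars); filled points have an adjusted p under 0.05. Ly6a is filled in all 6 models, Msln only in DSS (2.79) and DNBS (3.91), and Ccn2 is filled below 0 in TCT and with anti-CD40.

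A test of equal log2 fold changes over the 6 models, by edgeR's quasi-likelihood F test, was passed by 3 of the 6 genes, Msln (adjusted p = 3.06e-05), Ccn2 (0.00202) and Anxa1 (0.0174). For Ankrd1 the adjusted p was 0.0546, for Ccn1 0.0573 and for Ly6a 0.0899. Of all genes 60.5% passed this test, so the 3 of 6 were not more than the background. None of the 6 genes differed between the Balb/C and the Rag2-/- controls or between the Balb/C and the Rag1-/- controls in edgeR's quasi-likelihood test, where 8.11% and 10.9% of all genes did, and in each comparison 1 of the 6 had an unadjusted p under 0.05, Ccn2 both times. No other tool was run on the control groups.

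Other genes of the fetal-like or regenerative epithelium were described as a list of 15. In DSS 11 were higher and 1 lower, in TRUC 9 and 1, with the IL10 antibody 6 and 1, in TCT 4 and 2, in DNBS 2 and 0 and with anti-CD40 2 and 3. Without DSS mouse 8 the 11 in DSS became 7, and without Balb/C mouse 1 the 6 with the IL10 antibody became 3. The 3 lower with anti-CD40 became 1 without anti-CD40 mouse 7 and at most 2 without any other mouse of that comparison. Without DNBS mouse 14 or Balb/C mouse 1 or 2 the 2 in DNBS became 0. In this and the next lists, counts of 0 to 2 genes changed by at most 2 genes when single mice were left out. Every list, the annexins included, is to be read against the shares of all genes given above for each model. Anxa2, Anxa3 and Anxa5 are in this list and among the annexins, and the list was chosen with earlier results of these data known. The median of the 15 log2 fold changes was 1.37 in DSS, 0.86 in TRUC, 0.61 in DNBS, 0.46 in TCT, 0.27 with the IL10 antibody and 0.13 with anti-CD40. Spp1 (osteopontin, also made by macrophages) was higher in all models but TCT. It had 0.152, 0.1998 and 0.4101 CPM in the Balb/C controls, 0.944, 6.91 and 28.1 in DSS and 4.42, 12.9 and 1.71 in DNBS. The mice did not overlap, with log2 fold changes of 5.52 ± 0.97 (SE, adjusted p = 0.000166) in DSS and 4.61 ± 0.97 (SE, adjusted p = 0.00849) in DNBS. The 6 macrophage markers were called higher in DSS, TRUC and TCT, 3 of 6 with the IL10 antibody and with anti-CD40 and 1 of 6 in DNBS, and their part in the Spp1 values was not tested. Marcksl1, an actin-binding protein, was higher in all models but anti-CD40, at 3.10 with the IL10 antibody, 2.92 in TCT, 2.87 in DSS, 2.61 in TRUC and 1.93 in DNBS. Ereg and Areg, ligands of the EGF receptor, were higher in DSS at 3.78 and 2.72, and Areg with the IL10 antibody at 2.73 and in TRUC at 1.65. The alarmin Il33 was lower with anti-CD40 (-2.73) and in TCT (-1.63). Clu, the marker of revival stem cells, passed in no model, with values from -0.77 in TRUC to 0.73 in DNBS.

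Of 15 genes of the Hippo pathway and its TEAD factors, 4 were higher and 0 lower in DSS, 3 and 2 with the IL10 antibody, 2 and 0 in DNBS, 1 and 4 in TRUC, 1 and 1 in TCT and 1 and 0 with anti-CD40. The 4 in DSS became 2 without DSS mouse 8, and the 4 lower in TRUC became 2 without Rag2-/- mouse 2. The median log2 fold change of these genes ran from -0.07 in TCT to 0.28 in DSS. Of all genes 17.7% were higher in DSS and 3.95% in DNBS. The shares higher and lower were 27.2% and 26.1% with the IL10 antibody and 22.4% and 23.4% in TRUC. They were 16.1% and 14% in TCT and 10.9% and 10.7% with anti-CD40. In these 4 models no share of the list was clearly above that of all genes. Nor was it clearly so in DSS or DNBS, where the counts fell to 2 without DSS mouse 8 and to 0 without Balb/C mouse 1. The TEAD factor Tead4 was higher in 5 of 6 models. It had 3.12, 2.46 and 4.35 CPM in the Balb/C controls, 6.99, 7.04 and 17.8 in DSS and 7.46, 11.2 and 14.4 in DNBS. Neither group overlapped the controls, with 1.68 ± 0.38 (SE, adjusted p = 0.00179) in DSS and 1.73 ± 0.39 (SE, adjusted p = 0.0112) in DNBS. Tead4 was also higher in TCT (1.67), with the IL10 antibody (1.39) and in TRUC (1.21), and at 0.79 ± 0.39 (SE, adjusted p = 0.151) with anti-CD40. Yap1 was higher in DSS alone, by 0.47, and its value in the other models lay between -0.20 and 0.19. The related co-activator Wwtr1 (TAZ) was higher in DSS at 0.68 but lower in TRUC at -0.71 and with the IL10 antibody at -1.10. Tead1 was higher in DSS at 0.83, Tead2 was higher in DNBS at 1.14 and lower in TCT at -0.69, and Tead3 was lower in TRUC at -0.49. The F test over the models was passed by Wwtr1, Tead1, Tead2, Tead3 and Yap1, and not by Tead4 (adjusted p = 0.275).

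Of 18 other YAP/TAZ target genes, 8 were higher and 1 lower in DSS, where 17.7% of all genes were higher and 16.3% lower. In TRUC 2 were higher and 8 lower, where 22.4% of all genes were higher and 23.4% lower. With the IL10 antibody the counts were 3 and 5, in TCT 3 and 2, with anti-CD40 1 and 3 and in DNBS 1 and 0. With the IL10 antibody and in TCT no share of the list was clearly above that of all genes, which was 27.2% higher and 26.1% lower, and 16.1% and 14%. Neither was it in DNBS, where 3.95% of all genes were higher, or with anti-CD40, where 10.9% were higher and 10.7% lower. The difference between models was not tested over the list. Without DSS mouse 8 the 8 in DSS became 3, and without Balb/C mouse 4 they became 5. The 1 lower in DSS became 0 whichever mouse of that comparison was left out. Without anti-CD40 mouse 7 the 3 lower with anti-CD40 became 1. The list's median log2 fold change was 0.53 in DSS and -0.27 in TRUC. In DSS the largest called changes were Fjx1 (1.24), F3 (1.11), the tissue factor of coagulation, Ccdc80 (1.02) and Arhgef17 (0.94). In TRUC they were falls of Crim1 (-1.94), Igfbp3 (-1.82), Nt5e (-1.41) and F3 (-1.17). Ankrd1 and Ccn1 rose in TRUC, against the direction of most called genes of this list. The other 4 CCN genes gave 2 higher in DSS and in DNBS, 1 in TRUC, 1 higher and 1 lower with the IL10 antibody and in TCT. With anti-CD40 edgeR and DESeq2 called 0 of the 4, and 1 was lower at an unadjusted p under 0.05. The 2 in DNBS became 0 without DNBS mouse 14 and 1 without any 1 of the Balb/C controls. Ccn5 was higher in TRUC (3.01), DSS (2.68) and with the IL10 antibody (2.27), while Ccn3 was higher in DNBS (2.76) and lower in TCT (-2.13). The medians of these 4 ran from -0.70 with anti-CD40 to 1.41 in DNBS. Of 9 genes linked to TGF-beta and stretch, which can also act on Ccn2 and Ankrd1, 5 were higher in DSS, among them Thbs1 (3.09), 3 in TCT, 2 with the IL10 antibody, 1 in DNBS and 1 in TRUC, and 1 was lower with the IL10 antibody, in TRUC and with anti-CD40. The 1 in DNBS became 0 without DNBS mouse 14 or Balb/C mouse 1 or 2, the 1 higher in TRUC became 0 without Rag2-/- mouse 1 or 2 and 2 without TRUC mouse 5, the 1 lower in TRUC became 0 without Rag2-/- mouse 2 or 4 or TRUC mouse 3 or 4, and the 1 lower with anti-CD40 became 2 without Rag1-/- mouse 2 or anti-CD40 mouse 8. Their median ran from -0.17 with anti-CD40 to 0.73 in DSS. Tgfb2 is in this list and among the YAP/TAZ targets.

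**Figure D4:**
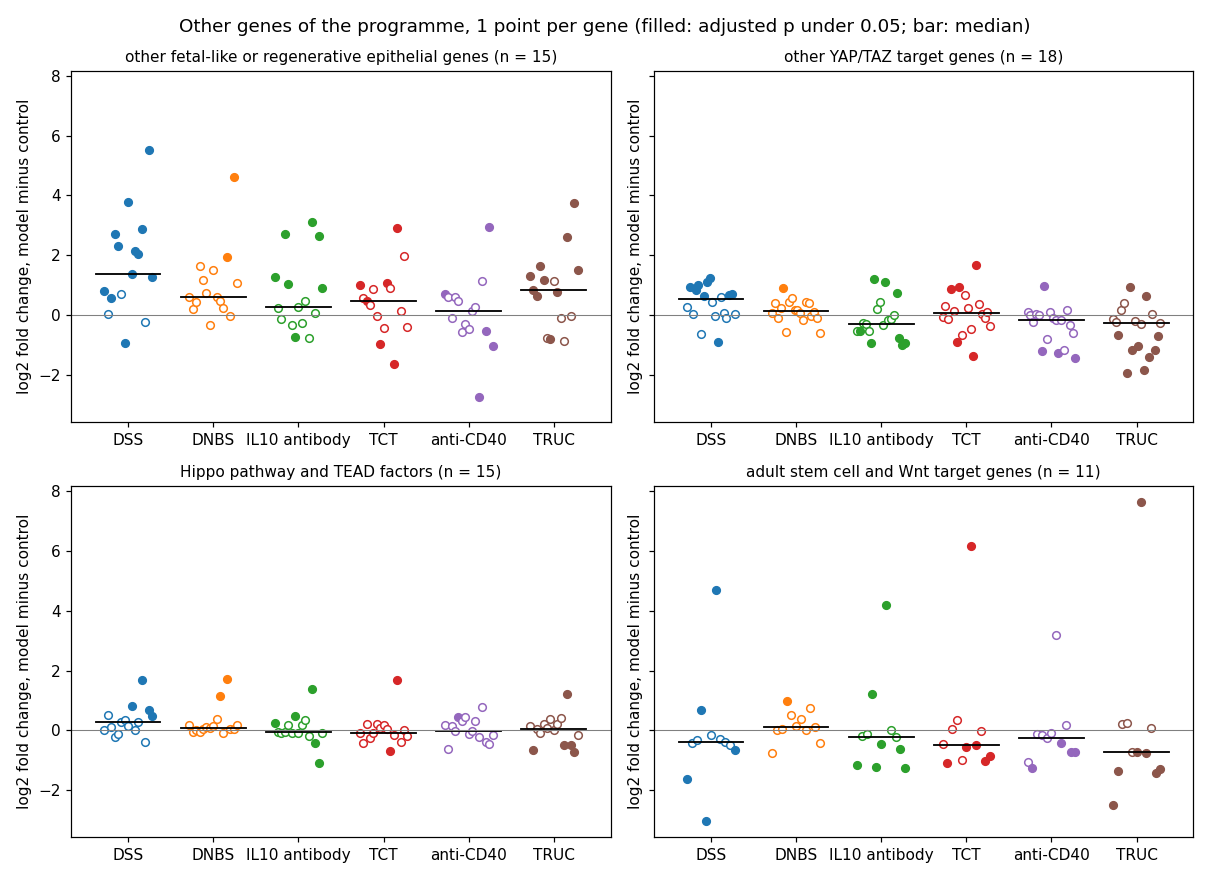
Log2 fold changes of single genes (points) of 4 lists in the 6 models, filled where the adjusted p was under 0.05, with the median of each list as a bar. The 18 other YAP/TAZ targets lie mostly above 0 in DSS (8 higher, 1 lower) and include 8 lower genes in TRUC, and the 11 adult stem cell and Wnt target genes are mostly below 0 in TRUC, with Olfm4 far above.

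Genes of the adult stem cell and of Wnt signalling, the programme that the fetal-like state replaces, were mostly lower where they were called. Of 11 genes, 1 was higher and 6 lower in TRUC, 2 and 5 with the IL10 antibody, 1 and 5 in TCT, 2 and 3 in DSS, 0 and 4 with anti-CD40 and 1 and 0 in DNBS. The 5 lower with the IL10 antibody became 3 without IL10 antibody mouse 2 or Balb/C mouse 1, 2 without Balb/C mouse 2 and 1 without IL10 antibody mouse 4 or Balb/C mouse 4. The 4 lower with anti-CD40 became 2 without Rag1-/- mouse 2 or 3 or anti-CD40 mouse 6 and 1 without anti-CD40 mouse 7, the 3 lower in DSS became 5 without DSS mouse 5, and against the Balb/C controls TCT had 1 higher and 1 lower. Their median ran from -0.72 in TRUC to 0.10 in DNBS. Lgr5, the marker of the crypt base stem cell, had 11.4, 13.5 and 11.9 CPM in the Balb/C controls, 3.71, 0.273 and 0.3199 in DSS and 15.9, 21.5 and 14.9 in DNBS. Levels in DSS lay wholly below the controls and those in DNBS wholly above, at -3.04 ± 0.56 (SE, adjusted p = 0.000244) and 0.50 ± 0.48 (SE, adjusted p = 0.544), the latter not called. Lgr5 was also lower with the IL10 antibody, at -1.21 ± 0.46 (SE, adjusted p = 0.0318), and its log2 fold change differed between the models (F test adjusted p = 0.000290). Olfm4 went the other way, at 7.63 in TRUC, 6.15 in TCT, 4.68 in DSS and 4.19 with the IL10 antibody, and Ascl2 was lower in TRUC (-2.50), DSS (-1.63) and with the IL10 antibody (-1.16).

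The relatives of Ly6a were also called in most models. Of 8 other Ly6 genes tested, 6 were higher and 1 lower in TRUC, in DSS and with the IL10 antibody, 5 and 1 in TCT and 4 and 1 with anti-CD40. In DNBS edgeR called 0 and DESeq2 1, and 3 were higher at an unadjusted p under 0.05. Without DSS mouse 8 the 6 in DSS became 1, and without Balb/C mouse 1 or 2 they became 3. The median of the 8 ran from 1.09 in DNBS to 3.88 in TCT. Ly6c1, a marker of monocytes and endothelium, was higher in the 5 other models, by between 2.92 and 3.85. Ly6g6d was lower in the same 5 models. Some of these genes also differed between the untreated groups: Ly6d had 71 to 90 reads in the Balb/C controls and 0 to 2 in the Rag1-/- and Rag2-/- controls, so its log2 fold change in TCT was 6.59 against Rag1-/- and 0.48 against Balb/C. Against Balb/C, TCT had 3 higher and 1 lower. Of 12 interferon response genes, 11 were higher in DSS and with the IL10 antibody, 9 in TCT, 7 in TRUC, 7 with anti-CD40 and 5 in DNBS, and edgeR called 0 lower in any model, with 1 lower in DNBS at an unadjusted p under 0.05 and in DESeq2. The median of the 12 ran from 1.71 in TRUC to 4.42 in DSS. The 5 in DNBS became 0 without DNBS mouse 16, the same mouse on which the Ly6a call rested, and 0 without any 1 of the Balb/C controls. The 7 in TRUC became 4 without TRUC mouse 3 or any 1 of the Rag2-/- controls, and the 7 with anti-CD40 became 3 without Rag1-/- mouse 3 and 4 without anti-CD40 mouse 7. The chemokine Cxcl9 was higher in all 6 models, at 7.73 in DSS and 5.52 in DNBS. The part of interferon in the Ly6a values was not tested.

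Across the 29 mice, the 6 genes did not follow 1 pattern. Spearman's rho of log2 CPM was 0.841 between Anxa1 and Ankrd1, 0.727 between Ly6a and Anxa1 and 0.653 between Ly6a and Ankrd1. Ccn1 and Ccn2 went together at 0.604, and rho of either with the 3 others just named lay between -0.324 and 0.184. Msln had no rho above 0.247 with any of the other 5. The genes whose levels were most like each of the 6 over the 29 mice were also listed. For Ly6a these were Il18bp (0.943), Bak1 (0.934) and Rmdn3 (0.932), for Anxa1 they were Anxa2 (0.928), Acot9 (0.926) and Cxcl5 (0.911), and for Ankrd1 they were Mcub (0.902), Capg (0.877) and Gcnt4 (0.875). Msln was most like Mpp2 (0.775), Chga (0.755) and Slit1 (0.747). The closest genes to Ccn1 were Surf6 (0.720), Nrgn (0.696) and Slc25a25 (0.609), and to Ccn2 they were Mok (0.680), Tmc7 (0.654) and Adnp2 (0.654). These values describe mice that share groups, treatments and libraries, and they carry no test.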

How the data were processed

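Colon RNA of 29 mice (9 groups of 3 or 4) was analysed. The deposited table holds raw read counts per gene that the authors made, unnormalised. The submitters' processing notes name Trimmomatic, HISAT2, HTSeq and build GRCm38, without roles or parameters. Versions are not given in the sources used here. The table also lists 92 spike-ins whose total count was 0, which stayed out of library sizes and tests, and 20470 genes were at 0 in all 29 libraries. Symbols and coordinates came from GENCODE M21 (GRCm38), which named 54409 of 54532 IDs.

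The 18616 genes whose count averaged 3 or more were fitted in edgeR 4.0.16 (R 4.3.3, limma 3.58.1) with TMM scaling and 1 model of all 9 groups, followed by quasi-likelihood F tests of each model against its control, two-sided, with Benjamini-Hochberg adjustment over all 18616 genes and a threshold of 0.05. CPM values were computed here from TMM-scaled library totals, and standard errors as the absolute log2 fold change over the root of F, with 95% intervals of the log2 fold change from the t distribution with 20 residual degrees of freedom. Levels between genes were compared per kilobase of exon. The limit of a count of 0 was set at 3 counts per library, and exact 95% intervals of count ratios cover counting error only. Totals of 10725564 to 14977094 counts per mouse set the precision. The scripts were tested on simulated counts.

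The genes and lists were chosen with earlier results of these data known. The 6 genes were all named (a further member and a gene of another list are not reported here), and of other lists the genes with the largest called changes, the core YAP, TAZ and TEAD genes, Lgr5 and Clu, and the 3 genes of highest Spearman rho with each member. Alternatives were DESeq2 1.42.0, other scaling, filters, 2 groups alone, other controls, a replicate block and leaving out each mouse. For the gene lists these were chosen after seeing the data. The mice were grouped by the labels alone.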

Additional observations from a re-analysis of the deposited data

Results flagged for a closer look

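The log2 fold change of 3 of the 6 genes differed between the 6 models by an F test (edgeR, quasi-likelihood) adjusted over all genes. The adjusted p was 3.06e-05 for Msln, 0.00202 for Ccn2 and 0.0174 for Anxa1. Of all genes 60.5% passed the same test. For Msln the changes ran from -0.96 in TRUC to 3.91 in DNBS, for Ccn2 from -1.94 in TCT to 0.55 in TRUC, and for Anxa1 from 0.44 with anti-CD40 to 1.58 in TRUC. Of the groups of 4 mice, TRUC and the IL10 antibody, 12 sets of values were checked for a mouse far from the others, and none was flagged. With 4 values such a check can miss a single high mouse, and TRUC mouse 4 in Ccn1 was not flagged. The groups of 3 mice were not checked.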

How the results depend on the processing

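Of the log2 fold changes of the 6 genes under single alternatives, 464 kept their direction and their side of the threshold, 21 fell below it, 12 rose past it and 7 changed sign. The changes of sign were Ccn2 in DSS (-0.024 with upper quartile scaling, -0.51 without DSS mouse 8 and -0.15 without Balb/C mouse 2, in a range of -0.51 to 0.32 over single mice left out), Msln in TCT (0.38 against the Balb/C controls), Ccn2 with anti-CD40 (0.36 against the Rag2-/- controls) and Ccn1 with anti-CD40 (1.31 against the Rag2-/- controls and 0.15 without Rag1-/- mouse 4, in a range of -0.75 to 0.15). None of these had passed the threshold except Ccn2 with anti-CD40, and the cause was not tested. Fits of the 2 groups alone in edgeR gave 0 genes higher in DNBS instead of 2 (4 at an unadjusted p under 0.05), 1 lower in TRUC instead of 0 (Msln), and, through Ankrd1, 3 higher in DSS instead of 4 and 3 in TCT instead of 2. In DNBS DESeq2 and the fit without a filter gave 4 genes higher and a threshold of 0.01 gave 1, and without a filter 6 genes instead of 3 differed between the models. Anti-CD40 against the Rag2-/- controls gave 1 higher and 0 lower instead of 1 and 1. When single mice were left out, the number higher was 3 to 4 in TRUC, 3 to 4 in DSS, 1 to 4 in DNBS, 2 to 3 with the IL10 antibody, 2 to 3 in TCT and 1 with anti-CD40, the number lower was 1 in TCT and 0 to 1 with anti-CD40, and the number that differed between the models was 2 to 5. It was 5 without DSS mouse 5 or 6, DNBS mouse 16 or IL10 antibody mouse 4.

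Mouse numbers are shared between some groups, but in TRUC and with the IL10 antibody same-numbered mice did not deviate together. TCT and its Rag1-/- controls also share mouse number 3, and that pair was not checked. The correlation over genes was -0.052 and -0.0055 for the 2 shared numbers of TRUC and the Rag2-/- controls, and 0.056, 0.014 and -0.020 for the 3 of the IL10 antibody and the Balb/C controls. With a replicate block 3 of the 6 genes were higher in TRUC, since Ccn1 had a log2 fold change of 1.24 and an adjusted p of 0.222, and 3 with the IL10 antibody, with 0 lower in both. Among the lists, the block moved the interferon genes higher in TRUC from 7 to 2, Ly6 genes from 6 to 3, YAP/TAZ targets lower from 8 to 5 and Hippo genes lower from 4 to 1, and stem cell genes lower with the IL10 antibody from 5 to 2.

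Upper quartile scaling moved the median of all genes by -0.17 with the IL10 antibody and by -0.11 in TRUC on the log2 scale, and with it Hippo genes with the IL10 antibody went from 3 higher and 2 lower to 1 and 5 and YAP/TAZ targets lower from 5 to 8. With 2 groups alone, interferon genes higher in DNBS went from 5 to 0, YAP/TAZ targets higher in DSS from 8 to 5, and fetal-like genes higher from 4 to 8 in TCT and from 2 to 4 in DNBS and with anti-CD40. DESeq2 gave 5 fetal-like genes higher in DNBS instead of 2. Against the Balb/C controls, TCT had 4 Hippo genes higher instead of 1 and 3 annexins instead of 5. Anti-CD40 against the Rag2-/- controls had 6 YAP/TAZ targets lower instead of 3 and 1 stem cell gene lower instead of 4. Depth limited Ankrd1 most, whose controls held 1 to 14 reads per mouse.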
